A study of Mus musculus with 56 samples.

Results

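The transcripts described here are those of 9 mouse genes of the ATF4 and amino acid response, namely Atf4, Ddit3, Trib3, Chac1, Asns, Sesn2, Psat1, Phgdh and Slc38a2. They are 9 of the 17027 genes of the deposited kidney table and were taken by gene name, with no threshold on their values. Poly(A) RNA was sequenced from kidneys of 56 female C57BL/6J mice aged 9 weeks. After free access to chow, 28 mice were put on daytime-restricted feeding (DRF) and 28 on nighttime-restricted feeding (NRF, the reference) for 7 days, all under a cycle of light and dark. Kidneys were collected every 4 h over 1 day, at 7 times from lights on (ZT0) to the next lights on (ZT24), where ZT is the zeitgeber time counted in hours from when the lights came on. Each of the 14 groups had 4 mice. The labels name no genetic change in any mouse, and no group was fed without restriction at the time of collection. The labels give a number for each sample, and 1 NRF ZT24 library has a column whose number no label carries, so that library is named without a number.

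ATF4 is a transcription factor of the integrated stress response. Kinases that sense amino acid shortage, unfolded protein in the endoplasmic reticulum (ER), viral RNA or heme deficiency phosphorylate the initiation factor eIF2, general translation slows, and ATF4 protein is made because upstream reading frames on its mRNA are bypassed. The mRNA level of Atf4 therefore does not report the amount or activity of ATF4 protein, which was not measured. ATF4 binds composite elements, called CARE or C/EBP-ATF response elements, in genes for amino acid uptake, amino acid synthesis, redox balance and feedback on the response. The kidney takes filtered amino acids back from the tubular fluid and releases serine into the blood, so amino acid handling is a large part of what its tubules do.

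The CARE core was sought to show where the members carry the letters that ATF4 is known to bind. The letters TGATGNAA were searched on both strands from 250 bases before to 50 bases after each start site in RefSeq sequence of build GRCm38.p6. All 9 members had such a promoter window (Psat1 had 2), and 3 of them held a match. The share was 2.71% of the tested genes with a window (264 of 9750) and 4.51% of all genes with one (1219 of 27025). Each line below gives 30 bases 5′ to 3′ on the gene's own strand, with the match in capitals.
Asns, chr6:7693214-7693243, minus strand: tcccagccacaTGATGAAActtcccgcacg
Chac1, chr2:119351038-119351067, plus strand: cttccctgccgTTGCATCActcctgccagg
Trib3, chr2:152344028-152344057, minus strand: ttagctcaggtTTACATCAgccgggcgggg

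The Asns match lay on the gene's own strand, with its first base at −23 from the start site. The Chac1 and Trib3 matches were on the opposite strand, so the capitals read as the reverse complement of the core, and their first bases were at −193 and 15 from the start site. The ER stress element (CCAAT, 9 bases of any kind, CCACG) was in none of the members' windows and in 0.164% of the tested genes. The E-box CACGTG, which clock factors bind, was in none of the members' windows and in 11.6% of the tested genes. A match is a run of letters and no measurement of binding, and a missing match says only that the letters are not in the window searched.

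All 9 members had reads in all 56 libraries and passed the filter of a mean of at least 1 TPM (a level per transcript length, as a share of the library) that 12197 genes passed. The libraries held between 21657551 and 23999921 recovered reads each. The proximal tubule, thick ascending limb and collecting duct markers were present in every library. Libraries differed in marker sums. That of the collecting duct and inner medulla ran from 388 to 2183 TPM, that of adipose tissue from 0.259 to 3141 TPM with a median of 15.7 TPM, that of immune cells from 47.8 to 187 TPM, and the 1 blood marker with recovered reads from 4.66 to 46.3 TPM. The adipose sum was over 500 TPM in 7 libraries, and all of these but DRF ZT20 mouse 4 were NRF. The NRF libraries were ZT0 mouse 1, ZT4 mouse 4, ZT12 mouse 1, ZT16 mice 1 and 2, and ZT20 mouse 2. Leaving them out thus thins mainly the NRF groups. Each test was also run with the sum of the collecting duct and inner medulla (the medullary sum) as a covariate and without those 7 libraries. Both were chosen after the data were seen. The part of the immune and blood markers in the results was not tested. In bulk tissue, a lower share of a cell type and less transcript per cell cannot be told apart.

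Atf4 had the highest level of the members, with a mean of 144 TPM over the 56 libraries and a range from 105 to 241 TPM. It was above Slc38a2 in 56 of 56 libraries and the ranges of the 2 genes did not overlap. Slc38a2 (44.1 TPM), Sesn2 (37.5 TPM), Psat1 (33.8 TPM), Ddit3 (32.7 TPM) and Phgdh (27.1 TPM) followed, and each of these was above the next in only 33 to 43 of the 56 libraries. Asns (12.1 TPM) was below Phgdh in all 56 libraries. Chac1 (2.91 TPM) was below Asns in all 56 libraries, and it exceeded Trib3 (2.25 TPM) in 29 of them. Chac1 rested on 5 to 149 reads per library and Trib3 on 14 to 71, against 1809 to 4066 for Atf4. The lowest count of Chac1, 5 reads in 1 DRF ZT0 library, has an exact 95% Poisson interval of 1.62 to 11.7 reads, which covers counting error only.

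**Figure D1:**
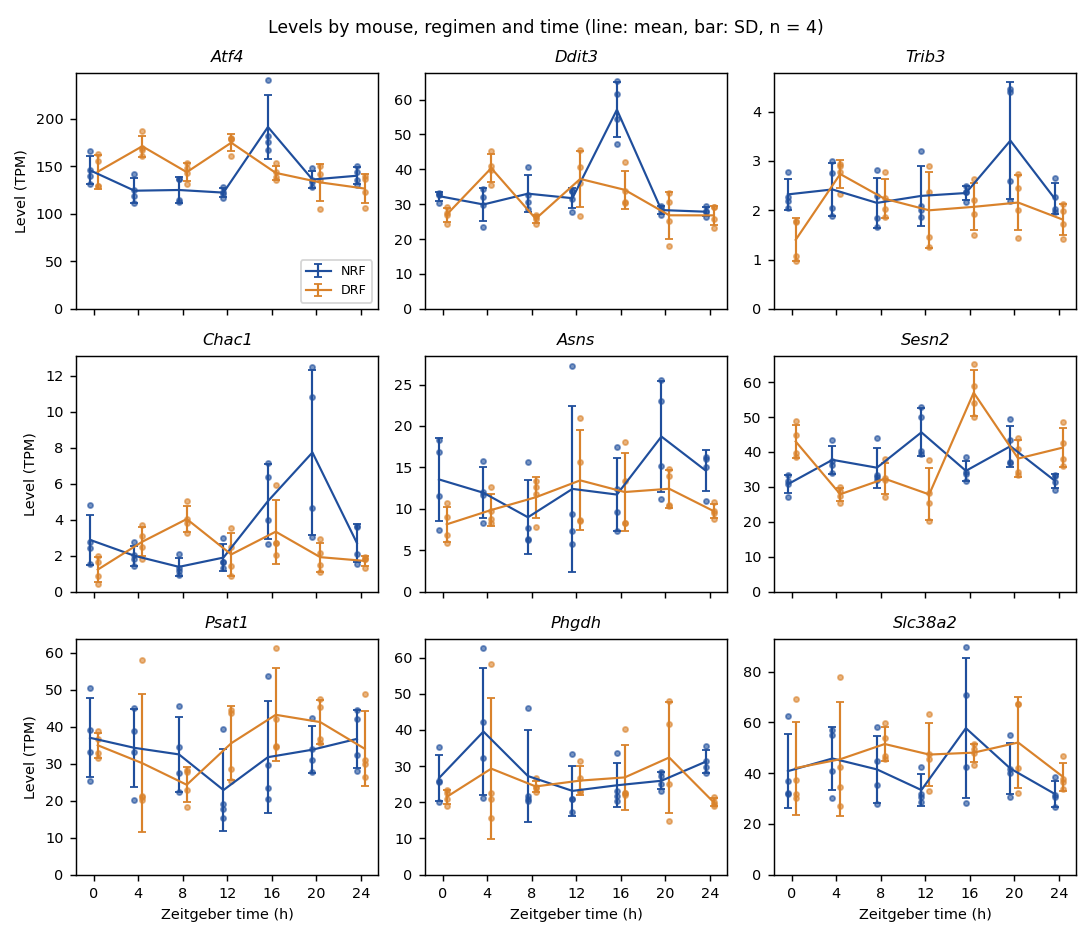
Levels of the 9 members in TPM (vertical axes, from 0) against zeitgeber time in hours (horizontal axes), NRF in blue and DRF in orange, with 1 point per mouse, lines through the group means and bars of 1 SD (n = 4). Atf4 and Ddit3 are highest at ZT16 under NRF, Chac1 at ZT20 under NRF, and Sesn2 at ZT16 under DRF, while the points of Psat1, Phgdh and Slc38a2 spread widely within single groups.

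Atf4 lies on chromosome 15 from 80255184 to 80257545 (all coordinates are GRCm38.p6). Under NRF its highest group was ZT16, where the 4 mice had 167, 241, 175 and 182 TPM, and its lowest was ZT12, where they had 128, 117, 123 and 121 TPM. The ZT12 and ZT16 groups of NRF did not overlap, and the means of 122 ± 4.59 and 191 ± 33.5 TPM (SD, n = 4) differed 1.57-fold. Under DRF the highest group was ZT12, with 180, 179, 161 and 179 TPM, and the lowest was ZT24, with 106, 123, 137 and 140 TPM. The 2 regimens were thus at opposite ends of their ranges at ZT12, where all 4 DRF mice were above all 4 NRF mice.

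Differences between regimens at the same clock time were tested as contrasts of 1 limma fit over all 14 groups on log2(TPM + 1), with Benjamini-Hochberg adjustment over all 12197 genes and a call at an adjusted p under 0.05. Over the 7 clock times, 13 of the 63 tests of members were called, where 16.3% of the tests of all genes were. At ZT0 2 members were called (16.7% of all genes), at ZT4 3 members (27.4% of all genes) and at ZT8 1 member (15.1% of all genes). At ZT12 2 members were called (18.8% of all genes), at ZT16 3 members (4.80% of all genes), at ZT20 2 members (16.9% of all genes) and at ZT24 0 members (14.6% of all genes). At ZT24, 2 members had an unadjusted p under 0.05, as did 3312 of all genes, and limma with voom weights called 2162 genes. The calls fell on Atf4, Ddit3, Trib3, Chac1 and Sesn2, and none on Asns, Psat1, Phgdh or Slc38a2.

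Atf4 was higher under DRF at ZT4 and ZT12 and lower at ZT16. At ZT4 the DRF mice had 187, 161, 167 and 169 TPM and the NRF mice 111, 119, 125 and 142 TPM. The groups did not overlap and the difference was 0.46 ± 0.099 on the log2 scale (SE, adjusted p = 0.000466). At ZT12 the difference was 0.51 ± 0.099 (adjusted p = 0.000207), the largest of Atf4. At ZT16 the DRF mice had 153, 136, 139 and 144 TPM, all below the NRF mice, and Atf4 fell by 0.40 ± 0.099 (adjusted p = 0.0111). That call was lost without NRF ZT16 mouse 2, the mouse with 241 TPM (adjusted p = 0.0903), and without the 7 libraries with high adipose markers, which leave 2 mice at NRF ZT16 (−0.32, adjusted p = 0.128).

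Ddit3, on chromosome 10 from 127290793 to 127296291, encodes CHOP, a transcription factor induced by ATF4 that partners C/EBP proteins and is known for its part in cell death under prolonged ER stress. At NRF ZT16 the mice had 61.6, 65.2, 47.3 and 54.3 TPM, and in the other 13 groups the highest single mouse had 45.5 TPM. The mean of 57.1 ± 7.94 TPM at NRF ZT16 was 2.05 times the NRF ZT24 mean of 27.9 ± 1.35 TPM. At ZT16 the DRF mice had 42.0, 33.7, 30.3 and 30.5 TPM, lower than under NRF with no overlap (a log2 difference of −0.73 ± 0.13, adjusted p = 0.000614). Without the 7 libraries with high adipose markers the difference was −0.57 (adjusted p = 0.0604). At ZT4 Ddit3 was higher under DRF, at 45.3, 39.7, 35.4 and 41.0 TPM against 23.4, 29.8, 34.5 and 32.0 TPM (0.43 ± 0.13, adjusted p = 0.0129). The groups at ZT4 did not overlap, and the call was lost without DRF ZT4 mouse 1 or without NRF ZT4 mouse 1 (adjusted p up to 0.0918). Atf4 and Ddit3 were called in the same direction at ZT4 and at ZT16.

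Trib3, on chromosome 2 from 152337425 to 152344060, encodes a pseudokinase that binds ATF4 and restrains its activity. At ZT0 the DRF mice had 1.77, 0.979, 1.07 and 1.78 TPM and the NRF mice 2.19, 2.77, 2.27 and 2.05 TPM. The groups did not overlap, and Trib3 was lower under DRF (a log2 difference of −0.48 ± 0.16, adjusted p = 0.0357). At ZT24, the same clock time on the next day, the groups overlapped and the difference was not called (−0.20 ± 0.16, adjusted p = 0.475). At ZT20 the DRF mice had 1.44, 2.0, 2.44 and 2.74 TPM and the NRF mice 2.60, 2.19, 4.46 and 4.39 TPM, which overlapped, and the difference was −0.46 (adjusted p = 0.0455). Both calls were at the edge of the threshold. The ZT0 call was lost when any of 5 libraries was left out (adjusted p up to 0.131) and with the medullary covariate (−0.39, adjusted p = 0.0747). The ZT20 call was also lost when any of 5 libraries was left out (up to 0.186), and with a pseudocount of 0.1 TPM (0.0614), without the ZT24 samples (0.0601) or with the replicate number as a block (0.0536).

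Chac1, on chromosome 2 from 119351242 to 119354326, encodes an enzyme that breaks down glutathione and is one of the most inducible targets of ATF4. It showed the widest range of the members, with group means from 1.23 ± 0.688 TPM at DRF ZT0 to 7.73 ± 4.6 TPM at NRF ZT20, a ratio of 6.28. At NRF ZT20 the mice had 4.64, 3.03, 10.8 and 12.5 TPM, of which mice 3 and 4 were the highest of all 56. At DRF ZT20 they had 1.51, 1.10, 2.14 and 2.93 TPM, all below the NRF mice, and the log2 difference was −1.45 ± 0.31 (adjusted p = 0.000717). At ZT8 the order was the other way round, with 5.03, 3.26, 3.80 and 4.07 TPM under DRF and 2.12, 1.16, 1.32 and 0.925 TPM under NRF. The ZT8 groups did not overlap and the difference was 1.10 ± 0.31 (adjusted p = 0.0115). The medullary marker sum at ZT8 was 1434 to 1706 TPM under DRF and 654 to 1604 TPM under NRF, and with that sum as a covariate the difference of Chac1 was 0.76 (adjusted p = 0.0417).

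Sesn2, on chromosome 4 from 132492804 to 132510456, encodes sestrin 2, a leucine sensor that binds the GATOR2 complex and restrains mTORC1. Its time course was unlike that of Atf4. At ZT16 the DRF mice had 54.0, 58.8, 65.2 and 49.9 TPM, the highest group of Sesn2, and the NRF mice had 34.4, 33.8, 38.5 and 31.7 TPM. The groups did not overlap and Sesn2 was higher under DRF (a log2 difference of 0.70 ± 0.13, adjusted p = 0.000650). At ZT12, 4 h earlier, the DRF mice had 25.3, 28.2, 37.8 and 20.1 TPM, below the NRF mice with 39.4, 52.9, 50 and 40.2 TPM, and the difference was −0.72 (adjusted p = 7.10e-05). Sesn2 was also higher under DRF at ZT0 (43.0 against 30.8 TPM, 0.47 ± 0.13, adjusted p = 0.00837) and lower at ZT4 (27.9 against 37.8 TPM, −0.42, adjusted p = 0.0119), again with no overlap. At ZT24, the same clock time as ZT0, the difference was 0.36 ± 0.13 and just missed the threshold (adjusted p = 0.0509). The ZT4 call was lost without NRF ZT4 mouse 1 (adjusted p = 0.0583). At ZT4, ZT12 and ZT16, the times when both genes were called, Sesn2 and Atf4 differed between the regimens in opposite directions.

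Asns, Psat1 and Phgdh make amino acids. Asns, on chromosome 6 from 7675165 to 7693209, encodes asparagine synthetase, while Phgdh (chromosome 3, 98313171 to 98339969) and Psat1 (chromosome 19, 15905123 to 15925059) encode the enzymes of the first and the following step of serine synthesis. Asns was highest at NRF ZT20, with 11.2, 15.2, 23.0 and 25.5 TPM, where mice 3 and 4 were the same mice in which Chac1 and Trib3 were high. At DRF ZT20 the mice had 10.4, 10.5, 14.8 and 14 TPM, which overlapped with NRF (−0.50 ± 0.32, adjusted p = 0.301). At NRF ZT12 mouse 1 had 27.2 TPM of Asns, the highest of all libraries, and the other mice had 5.72, 7.29 and 9.42 TPM. Psat1 was 39.3 TPM in that mouse and 17.8, 15.4 and 19.0 TPM in the others, and the same library had the highest adipose marker sum, 3141 TPM, whose part in these values was not tested.

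The largest clock-matched difference of Psat1 was at ZT12, with 28.6, 44.5, 25.4 and 43.7 TPM under DRF, and it was not called (0.67 ± 0.29, adjusted p = 0.104). It was called without the 7 libraries with high adipose markers and with median-of-ratios scaling. Phgdh differed most at ZT24, with 19.0, 19.4, 21.4 and 20.1 TPM under DRF and 28.2, 29.7, 31.5 and 35.5 TPM under NRF. The Phgdh groups at ZT24 did not overlap, yet the difference did not pass (−0.62 ± 0.29, adjusted p = 0.158), since limma weighs it against the spread within all 14 groups. Phgdh and Psat1 shared 1 extreme mouse, DRF ZT4 mouse 4, with 58.2 and 58.1 TPM against 15.5 to 22.5 and 20.3 to 21.3 TPM in the other mice of that group. That mouse also had the highest medullary marker sum, 2183 TPM.

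Slc38a2, on chromosome 15 from 96687392 to 96699728, encodes SNAT2, the sodium-coupled carrier of small neutral amino acids that cells add to their membrane when amino acids are scarce. Its group means ran from 31.8 ± 5.02 TPM at NRF ZT24 to 57.7 ± 27.7 TPM at NRF ZT16. At NRF ZT16 the mice had 28.1, 89.6, 70.8 and 42.4 TPM, so that the highest group mean came from a group whose lowest mouse was below most other libraries. The largest difference between the regimens was 0.47 ± 0.29 at ZT12 (adjusted p = 0.272). With a standard error near 0.29 at each clock time for Psat1, Phgdh and Slc38a2, against 0.099 for Atf4, a difference of the size seen in Atf4 was not detectable in these 3 genes.

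**Figure D2:**
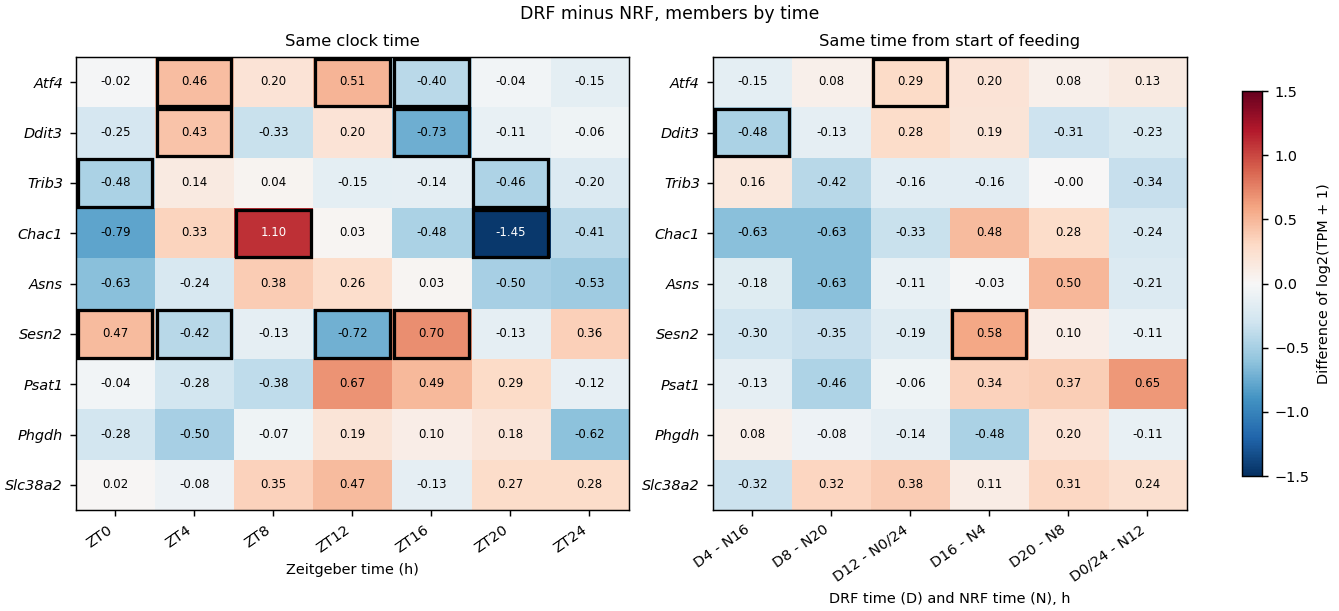
Estimated DRF minus NRF differences of log2(TPM + 1) for the 9 members (rows), at the same zeitgeber time in hours (left columns) and at the same time from the start of the feeding phase (right columns, D for the DRF time and N for the NRF time in hours), with black frames at an adjusted p under 0.05. The left panel has 13 framed cells in the rows of Atf4, Ddit3, Trib3, Chac1 and Sesn2 and the right panel has 3, and in the left panel the signs of Atf4 and Sesn2 are opposite wherever both are framed.

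The regimens were also compared at the same time from the start of the feeding phase, taken as lights on under DRF and lights off under NRF, which sets mice in opposite light phases side by side. Here 3 of the 54 tests of members were called, where 17.6% of the tests of all genes were. The share of all genes called was 18.2% for DRF ZT4 minus NRF ZT16, 14.7% for ZT8 minus ZT20, 17.0% for ZT12 minus ZT0/24, 33.3% for ZT16 minus ZT4, 12.1% for ZT20 minus ZT8 and 10.1% for ZT0/24 minus ZT12. Ddit3 was lower at DRF ZT4 than at NRF ZT16 (40.4 against 57.1 TPM, −0.48 ± 0.13, adjusted p = 0.00708), which was lost without the libraries with high adipose markers (−0.33, adjusted p = 0.204). Atf4 was higher at DRF ZT12 than at NRF ZT0 and ZT24 (175 against 143 TPM, 0.29 ± 0.086, adjusted p = 0.0139, n = 4 and 8), with overlap in range, and not without the ZT24 samples (0.26, adjusted p = 0.0784). Sesn2 was higher at DRF ZT16 than at NRF ZT4 (57.0 against 37.8 TPM, 0.58 ± 0.13, adjusted p = 0.000408), with no overlap.

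Chac1, called at ZT8 and ZT20 by clock time, was not called at any of the 6 times from the start of feeding. Its values there were 4.04 TPM at DRF ZT8 and 7.73 TPM at NRF ZT20 (−0.63 ± 0.31, adjusted p = 0.179), and a standard error of that size does not show that the regimens were alike. The count of 3 depended on the scaling. With median-of-ratios scaling it was 8, with the 5 further calls on Atf4, Ddit3 at 2 times, Sesn2 and Trib3, and that scaling moved the median of all genes by 0.122 on the log2 scale for DRF ZT16 minus NRF ZT4, where 2 of the 5 lay. Under that scaling 18.6% of the tests of all genes were called. With the medullary covariate the count was 11, beside 25.4% of the tests of all genes, and 3 of the 8 further calls were on Phgdh.

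Rhythms were described by a 24-h cosine fitted to log2(TPM + 1), in which the amplitude is the rise from the daily mean (the mesor) to the fitted peak and the phase is the time of that peak. Under NRF, 4 of the 9 members were rhythmic, where 54.6% of all tested genes were. Under DRF, 3 of the 9 were, where 36.3% of all genes were. The rhythm differed between the regimens, by the test of the interaction itself, in 5 of the 9, where 45.4% of all genes did. The members' shares were thus near those of all genes.

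Chac1 had the largest amplitude under NRF, 0.80 ± 0.14 with a peak at ZT18.86 ± 0.59 h (adjusted p = 8.88e-05). Under DRF its amplitude was 0.36 ± 0.13 with a fitted peak at ZT9.85, which just missed the threshold (adjusted p = 0.0506) and passed it with median-of-ratios scaling. The shift of the fitted peak, DRF minus NRF, was −9.01 ± 1.52 h, and the interaction had an adjusted p of 2.99e-05. Atf4 had amplitudes of 0.21 ± 0.05 with a peak at ZT18.08 under NRF (adjusted p = 0.00845) and 0.16 ± 0.05 with a peak at ZT9.10 under DRF (adjusted p = 0.0318), a shift of −8.99 ± 1.54 h (interaction adjusted p = 0.00103). The DRF rhythm of Atf4 was lost with the medullary covariate (adjusted p = 0.145), without the ZT24 samples (0.109) and without any of 4 single libraries (up to 0.0601).

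Sesn2 was rhythmic under DRF, with an amplitude of 0.37 ± 0.07 and a peak at ZT19.09 ± 0.70 h (adjusted p = 0.00444). Under NRF its amplitude was 0.15 ± 0.07 with a fitted peak at ZT12.80 (adjusted p = 0.0512), called with median-of-ratios scaling. The shift of its fitted peak was 6.29 ± 2.05 h (interaction adjusted p = 0.00321), whereas the fitted shifts of Atf4 and Chac1 had the other sign. Shifts are given as the shorter way around the day, so a shift near 12 h has no sign. Whether a shift was to an earlier or a later time was not tested.

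Psat1 was rhythmic under DRF, peaking at ZT18.19 ± 0.96 h with an amplitude of 0.40 ± 0.11 (adjusted p = 0.0100), and had a fitted peak at ZT0.27 with an amplitude of 0.27 under NRF (adjusted p = 0.0785). The interaction of Psat1 (shift −6.08 ± 1.85 h, adjusted p = 0.0261) was lost without DRF ZT16 mouse 1 or NRF ZT16 mouse 4 (up to 0.0578) and without the ZT24 samples (0.0501). Asns had an amplitude of 0.39 ± 0.12 under NRF with a peak at ZT21.01 (adjusted p = 0.0467), and this call was lost in 18 of the 56 fits that left out 1 library (up to 0.10). It was also lost without the ZT24 samples (0.102), with the replicate number as a block (0.0578) and with a minimum mean of 0.1 TPM (0.0519). The interaction of Asns (adjusted p = 0.0268) was lost without DRF ZT12 mouse 2 or NRF ZT12 mouse 2 (up to 0.0576), without the ZT24 samples (0.0784) and with the medullary covariate (0.281). Trib3, Phgdh and Slc38a2 were called in none of these 3 tests, with adjusted p values for the interaction of 0.0986, 0.0987 and 0.846.

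Ddit3 had a 24-h component under NRF, with an amplitude of 0.29 ± 0.08 and a peak at ZT15.03 (adjusted p = 0.00858), which was lost without the libraries with high adipose markers (0.0781). Under DRF its 24-h amplitude of 0.14 ± 0.08 was not called (adjusted p = 0.296), and neither was the interaction of the 24-h terms (0.126). Ddit3 was high in single groups (NRF ZT16, and DRF ZT4 and ZT12). The test of any difference among the 7 times was called under NRF (adjusted p = 5.69e-07) and under DRF (0.00213), as was the interaction of regimen and time (4.68e-05). Under DRF the means of Ddit3 were 40.4 TPM at ZT4, 25.8 TPM at ZT8 and 37.2 TPM at ZT12, and a 12-h component added to the 24-h terms was called, with an amplitude of 0.28 (adjusted p = 0.00837). Under NRF the 12-h amplitude of Ddit3 was 0.26 and was not called (unadjusted p = 0.00237, adjusted p = 0.131), and a difference of the 12-h component between the regimens was not tested. The only other member with such a component under DRF was Chac1 (amplitude 0.34, adjusted p = 0.0443), which was lost without any of 16 single libraries (up to 0.129), with the medullary covariate (0.137) and without the libraries with high adipose markers (0.0631).

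These 2 of 9 members with a 12-h component under DRF stand beside 24.5% of all genes. Under NRF the count was 0 of 9 beside 0.680% of all genes, with 2 members and 1335 genes at an unadjusted p under 0.05 and 113 genes called with voom weights. The mesor differed between the regimens in 0 of 9 members by limma, beside 9.07% of all genes, with 3 members and 2721 genes at an unadjusted p under 0.05 and 1219 genes called with voom weights. The nearest was Atf4, 0.11 ± 0.039 higher under DRF (148 against 141 TPM, adjusted p = 0.0762), which was called with voom weights, with median-of-ratios scaling and without the libraries with high adipose markers. Trib3 (−0.15 ± 0.064, adjusted p = 0.139) and Ddit3 (−0.12 ± 0.052, adjusted p = 0.168) had estimates of the other sign.

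**Figure D3:**
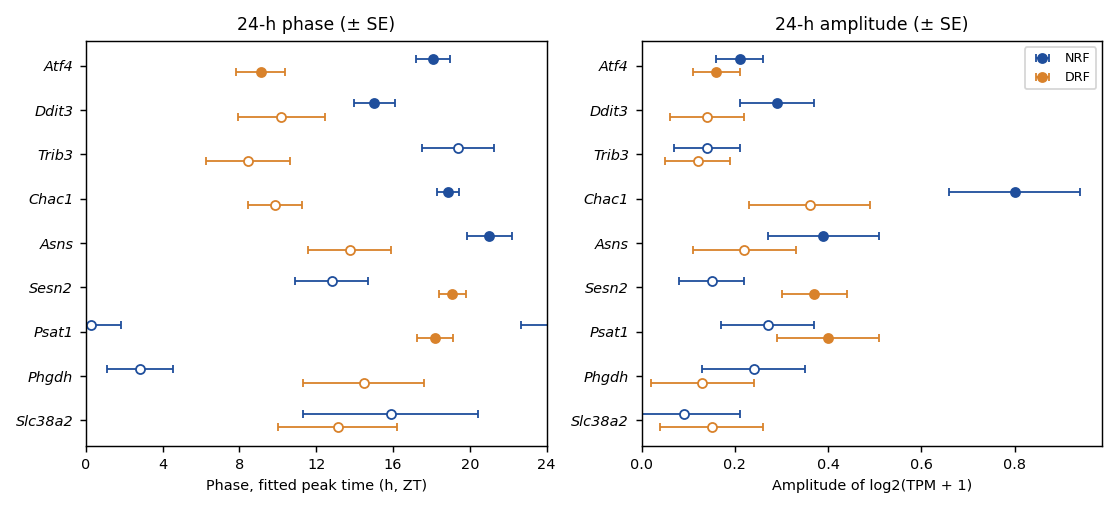
Fitted 24-h phase (left, time of the peak as zeitgeber time in hours) and amplitude (right, of log2(TPM + 1)) of each member under NRF (blue) and DRF (orange), with bars of 1 SE and filled points at an adjusted p under 0.05. The fitted peaks of Atf4 and Chac1 are at ZT9.10 and ZT9.85 under DRF and at ZT18.08 and ZT18.86 under NRF. Those of Sesn2 are at ZT19.09 under DRF and ZT12.80 under NRF, and open points have wide bars.

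The first and last collections, ZT0 and ZT24, fell at lights on of successive days, and their difference measures drift between collections. No member differed between them in NRF, in DRF or in the difference of both by limma, with 0 of 9 members at an unadjusted p under 0.05 in each of the 3 comparisons. Of all genes, 0.672% were called in NRF, 0% in DRF and 0% for the difference, while 935, 508 and 542 genes had an unadjusted p under 0.05 and voom weights called 76, 0 and 0 genes. The largest estimate among the members was 0.38 ± 0.44 for Chac1 in the difference of both regimens.

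Co-variation between mice of the same group was described next. Over the 36 pairs of members, Pearson's r of the deviations of log2(TPM + 1) from the group means (56 mice) was positive in 32, and 20 pairs passed at an adjusted p under 0.05 in a permutation test within groups (two-sided, 100000 resamples, Benjamini-Hochberg over the 36 pairs). On Spearman's rho, 19 pairs passed. Pairs of levels in 1 library share its scaling, and with median-of-ratios scaling 11 pairs passed, of which 10 were among the 20. The other was Atf4 with Sesn2, with r = −0.38 (adjusted p = 0.0219) there and r = −0.20 (adjusted p = 0.220) on the TPM scale. Many other genes varied together as well. The median size of r was 0.34 over the 36 pairs of members and 0.23 over all pairs of the 12197 tested genes, and 33.7% of all pairs had an r of at least the size of the lowest that passed among the members (0.34). With median-of-ratios scaling these medians were 0.25 and 0.21, and 21.7% of all pairs reached the lowest r that passed (0.38).

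The 10 pairs that passed on both scales joined Atf4 with Ddit3 and Slc38a2, Trib3 with Chac1 and Asns, Chac1 with Asns, Asns with Psat1, Phgdh and Slc38a2, and Phgdh with Psat1 and Slc38a2. The strongest was Phgdh with Slc38a2, with r = 0.72 and rho = 0.68 (adjusted p = 0.000120 and 9.00e-05), r = 0.65 with median-of-ratios scaling, and r = 0.66 without the 2 mice farthest from the median of Phgdh. Atf4 with Ddit3 had r = 0.66 and rho = 0.67 (adjusted p = 0.000120 and 9.00e-05), with r = 0.58 in NRF, r = 0.74 in DRF and r = 0.60 without the 2 farthest mice. Trib3 with Chac1 had r = 0.65 and rho = 0.61 (adjusted p = 0.000411 and 0.000823), and r = 0.61 without the 2 farthest mice. Psat1 with Phgdh, neighbours in serine synthesis, had r = 0.66 and rho = 0.64 (adjusted p = 0.000216 and 0.000144), and r = 0.57 without the 2 farthest mice, which were DRF ZT4 mouse 4 and NRF ZT12 mouse 1. Sesn2 was in no pair that passed on the TPM scale, with r from −0.23 to 0.29. The smallest unadjusted p these tests can give is 1e-05. No pair was adjusted for the medullary marker sum, with which Phgdh had r = 0.79 and Slc38a2 r = 0.77 within groups. The part of that sum in the pair correlations was not tested.

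**Figure D4:**
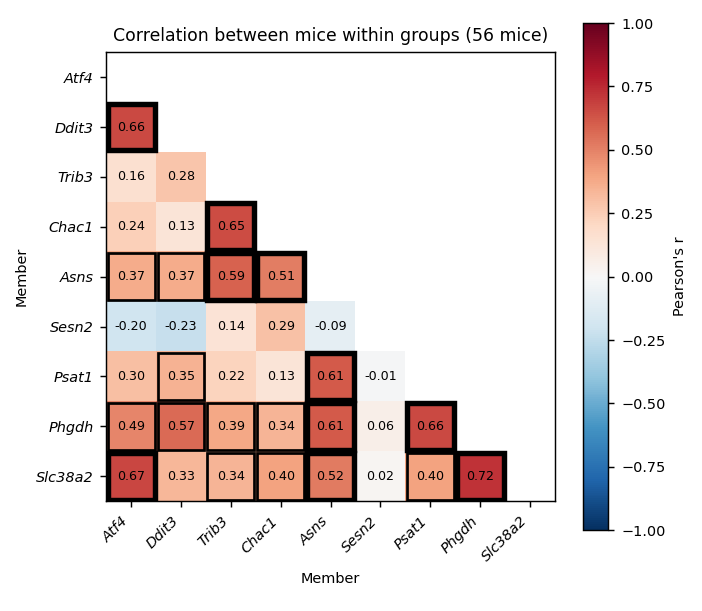
Pearson's r between members (both axes) of the deviations of log2(TPM + 1) from the group means over 56 mice, colour from −1 to 1, with thin frames at an adjusted p under 0.05 and thick frames where median-of-ratios scaling also gave one. Of the 20 framed pairs 10 are thick, the highest r is 0.72 for Phgdh with Slc38a2, and no pair with Sesn2 is framed. The values are not adjusted for any marker sum.

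Over the 14 group means, Atf4 and Ddit3 had r = 0.76 and Trib3 and Chac1 r = 0.74, while Psat1 and Phgdh had r = 0.33 and Phgdh and Slc38a2 r = 0.10 (a description over 14 points that share the scaling of their libraries). Within groups the last 2 pairs had r = 0.66 and r = 0.72, and the difference from their group-mean values was not tested.

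The medullary marker sum (Aqp2, Aqp3, Avpr2, Slc14a2 and Fxyd4) moved with the members within groups. The relation was examined after the marker levels were seen, in a family of 18 pairs of a marker sum and a member. Phgdh had r = 0.79 and rho = 0.76 with it (adjusted p = 9.00e-05 for both), r = 0.76 in NRF and 0.82 in DRF, and r = 0.73 without the 2 mice farthest from the median of the sum. Slc38a2 had r = 0.77 and rho = 0.76 (adjusted p = 9.00e-05 for both) and r = 0.73 without the 2 farthest mice. Asns followed with r = 0.56 and rho = 0.59 (adjusted p = 0.000120 and 0.000300), and r = 0.57 without them. In all, 8 of the 9 members passed on the TPM scale and 4 (Chac1, Asns, Phgdh and Slc38a2) with median-of-ratios scaling, where Atf4 had r = 0.32 (adjusted p = 0.126). The sum went with much of the transcriptome, since 41.3% of all tested genes had an r with it of at least the size of the lowest that passed among the members (0.39), and 39.0% did with median-of-ratios scaling (0.39). The median size of r was 0.46 over the members and 0.33 over all genes on the TPM scale, and 0.32 and 0.31 with median-of-ratios scaling.

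Sesn2 did not pass, with r = 0.00 and rho = −0.05 (adjusted p = 0.997 and 0.90), which joined r = −0.43 in NRF and r = 0.30 in DRF, and r was −0.08 without the 2 farthest mice. None of the 9 members passed with the adipose marker sum, where the highest r was 0.31 for Ddit3 (rho = 0.26, adjusted p = 0.0863 and 0.174, and r = 0.30 without the 2 farthest mice). With the medullary sum as a covariate in the fit, Phgdh was called under both regimens as rhythmic and in the interaction, and Slc38a2 as rhythmic under DRF, none of which held without it. With that covariate 58.9% of all genes were rhythmic under NRF and 53.1% under DRF, and 54.3% differed in rhythm. Without it these shares were 54.6%, 36.3% and 45.4%. The sum itself also differed between groups, with a median of 541 TPM at DRF ZT0 and 1584 TPM at DRF ZT8, and it holds genes such as Aqp2 that may vary with time in the same cells. Uneven sampling of the collecting duct and inner medulla and a change of these genes in their cells cannot be told apart here.

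**Figure D5:**
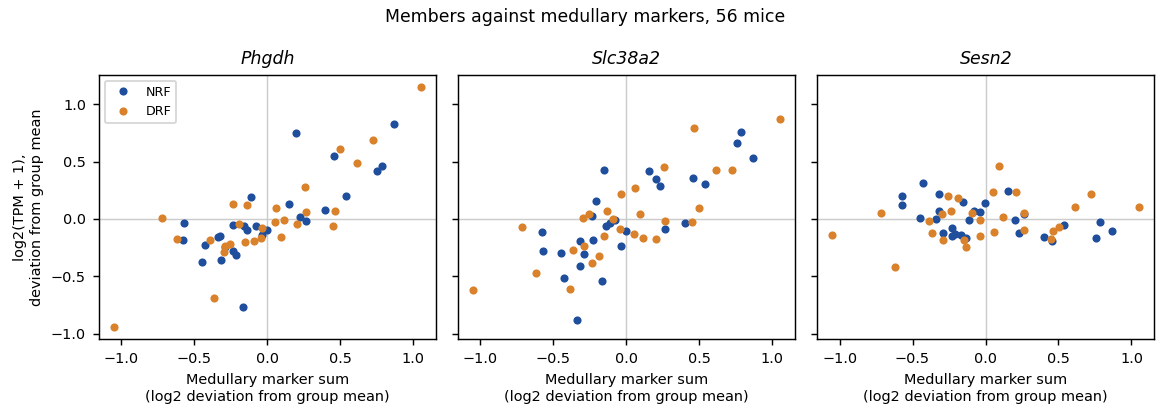
Deviations of log2(TPM + 1) from the group mean for Phgdh, Slc38a2 and Sesn2 (vertical axes) against the log2 deviation of the summed medullary markers from the group mean (horizontal axes), 1 point per mouse, NRF in blue and DRF in orange. The points of Phgdh and Slc38a2 rise together with the marker sum (r = 0.79 and 0.77, 56 mice) and those of Sesn2 do not (r = 0.00).

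Other genes of the response were counted in lists, to be read beside the 54.6% of all genes rhythmic under NRF, the 36.3% rhythmic under DRF and the 45.4% that differed in rhythm. Among the genes that set eIF2 phosphorylation and activity, 6 of 15 were rhythmic under NRF and 7 of 15 under DRF. Eif2ak2, the kinase PKR that responds to double-stranded RNA, was lower under DRF over the day (16 against 20.2 TPM, −0.30 ± 0.046, adjusted p = 1.08e-05), the only gene of this list with a different mesor. Eif2ak2 also differed between the ends of the NRF series (27.4 TPM at ZT0 and 16.5 TPM at ZT24, −0.70 ± 0.12, adjusted p = 0.000225). Impact, which restrains the amino acid sensor GCN2, was higher under DRF at ZT20 (65.9 against 44.8 TPM, 0.53 ± 0.10, adjusted p = 0.000145) and lower at ZT4 (40.1 against 53.6 TPM, −0.41 ± 0.10, adjusted p = 0.00185). Ppp1r15a, the stress-induced subunit of the eIF2 phosphatase, was lower under DRF at ZT4 (19.8 against 27.1 TPM, −0.43 ± 0.10, adjusted p = 0.00128), where Atf4 and Ddit3 were higher. Of the 15 genes of this list 7 were called at ZT4, 4 higher and 3 lower, beside 27.4% of all genes.

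Of 12 tested factors and regulators of the stress response, 6 were rhythmic under NRF, 3 under DRF and 3 differed in rhythm between the regimens, at or below the shares of all genes. Cebpg, the dimer partner of ATF4, was higher under DRF at ZT4 (42.4 against 32.2 TPM, 0.39 ± 0.08, adjusted p = 0.000246), as Atf4 was. It was the only gene of these 12 called at ZT4, where 27.4% of all genes were. Atf3 was lower under DRF over the day (2.66 against 3.67 TPM, −0.32 ± 0.072, adjusted p = 0.00279). Fgf21, a target that ATF4 induces in liver, had a mean of 0.110 TPM and was not tested.

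Of 9 tested genes of serine, one-carbon, proline and related metabolism, 5 were rhythmic under each regimen, beside 54.6% and 36.3% of all genes, and 7 differed in rhythm between the regimens, beside 45.4%. Psph, the last enzyme of serine synthesis after Phgdh and Psat1, was lower under DRF at ZT0 (9.96 against 13.3 TPM, −0.40 ± 0.096, adjusted p = 0.00232), ZT20 and ZT24, and higher at ZT12. Mthfd2, a mitochondrial folate enzyme and ATF4 target, was lower under DRF at ZT20 (5.47 against 10.1 TPM, −0.73 ± 0.20, adjusted p = 0.00783), the time at which Chac1 and Trib3 were. At ZT20, 3 of these 9 genes were called, all lower, beside 16.9% of all genes. Of 6 tested amino acid carriers other than Slc38a2, 3 were rhythmic under NRF and 2 under DRF. Slc6a9, a glycine carrier, had an NRF amplitude of 0.42 (adjusted p = 0.000120), and the cystine carrier Slc7a11 had a mean of 0.168 TPM and was not tested.

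Of 13 tested genes of amino acid sensing upstream of mTORC1, 7 were rhythmic under each regimen, beside 54.6% and 36.3% of all genes, and 8 differed in rhythm between the regimens, beside 45.4%. Sesn2 acts in the same pathway. Castor2, of the family of arginine sensors, was lower under DRF at ZT0, ZT20 and ZT24 (23.3 against 38.3 TPM at ZT20, −0.68 ± 0.14, adjusted p = 0.000592) and higher at ZT12. Flcn, a regulator of the Rag GTPases, was lower under DRF at ZT4 (25.3 against 39.7 TPM, −0.62 ± 0.092, adjusted p = 1.35e-06), as Sesn2 was. Of the 13 genes 4 were called at ZT4, 1 higher and 3 lower, beside 27.4% of all genes.

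Of 19 tested cytosolic aminoacyl-tRNA synthetases, which charge tRNA and of which several are ATF4 targets, 15 were rhythmic under NRF, beside 54.6% of all genes, and 9 under DRF, beside 36.3%. Their median NRF amplitude was 0.13, as over all genes. Aars was lower under DRF at ZT0, ZT20 and ZT24 and higher at ZT12 (43.1 against 32.8 TPM, 0.39 ± 0.069, adjusted p = 6.40e-05). Yars was lower at ZT0 and ZT24 and higher at ZT4, ZT8 and ZT12, where its difference was 0.37 ± 0.07 (23.0 against 17.6 TPM, adjusted p = 0.000156).

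The ER chaperones and unfolded protein response genes had larger amplitudes than the members. Their list, like the others, was written with earlier results of these data known, so its counts are a description. All 13 tested were rhythmic under NRF, with a median amplitude of 0.70, beside 0.24 over the 9 members and 0.13 over all genes. Sdf2l1 had the largest NRF amplitude among them (1.49, adjusted p = 2.10e-08), and Hspa5, which encodes the chaperone BiP, had 0.91 (adjusted p = 2.29e-06). At ZT4 all 13 were higher under DRF, with a median difference of 0.82 where the median over all genes was −0.05 and 1229 of 12197 genes were called higher. Hspa5 had 961 against 339 TPM there (1.48 ± 0.15, adjusted p = 1.66e-10), beside the differences of 0.46 for Atf4 and 0.43 for Ddit3.

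At ZT16, 9 of the 13 were lower under DRF, where 315 of 12197 genes were. At ZT20, 9 were lower and 1 was higher, where 739 of 12197 genes were lower and 1322 were higher. Creld2, an ER-resident protein, had 129 against 211 TPM at ZT16 (−0.71 ± 0.13, adjusted p = 0.000796). Under DRF 1 of the 13, Herpud1, had a 24-h rhythm and all 13 had a 12-h component, beside 24.5% of all genes, with a median amplitude of 0.46 beside 0.09. Under NRF 8 of the 13 had a 12-h component, beside 0.680% of all genes, with a median amplitude of 0.28 beside 0.06. Of the members, Atf4 and Ddit3 were called at ZT4 and ZT16 in the directions of this list, and Sesn2 was called at both times in the opposite directions (−0.42 at ZT4 and 0.70 at ZT16). Asns, Psat1, Phgdh and Slc38a2 were called at neither time. At ZT12 the median of the list was 0.51, and Atf4 was called higher (0.51) while Ddit3 was not called (0.20). At ZT0, ZT20 and ZT24 the medians of the list were −0.68, −0.74 and −0.52. Neither Atf4 (−0.02, −0.04 and −0.15) nor Ddit3 (−0.25, −0.11 and −0.06) was called at these times.

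The genes whose time course was most like that of 4 members were sought over the 14 group means of log2(TPM + 1) among 8520 genes with a mean of at least 10 TPM, as a description. Those most like Atf4 were Jmjd6 (r = 0.961), Pde12 (0.930), Eed (0.891), Wdr82 (0.891) and Dnajb1 (0.891), and those most like Ddit3 were Luc7l (0.920), Sec24c (0.917), Bag3 (0.906), Tmem248 (0.894) and Dnaja1 (0.885). Dnajb1, Bag3 and Dnaja1 encode heat shock co-chaperones, and the share of such genes among the 8520 was not counted. For Asns they were Pgap4 (0.828), Ltbp4 (0.825), Mgp (0.821), Dram1 (0.817) and Gpx8 (0.804), and for Trib3 Med27 (0.777), Ptk2 (0.774), Celsr1 (0.772), Mettl7b (0.770) and Paqr9 (0.764). Members were left out of this search.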

How the data were processed

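Per the labels, poly(A) RNA was made into libraries by the authors and read as pairs of 100 bases on BGISEQ-500. The submitters' processing notes name HISAT2, Bowtie2, RSEM, mm10 and GRCm38.p6, with no versions. The deposited score, which the authors call TPM, behaved as log2(CPM + 1) divided by gene length and scaled to a like sum in each library (999145 to 999753). Whole reads were recovered from it with exon lengths of the annotation of GRCm38.p6 (14320 genes) or a searched length (987 genes), 15307 genes in all, for which 99.1% of values above 0 were whole within the tolerance (0.05 reads, at most 0.15 at high counts), and 1720 genes were left out. TPM was rebuilt from them. limma 3.58.1 (R 4.3.3) with a mean-variance trend was fitted to log2(TPM + 1) of the 12197 genes with a mean of at least 1 TPM, with Benjamini-Hochberg adjustment over all of them and ZT24 at the phase of ZT0. A fold on this scale understates the change of low genes. Other scalings, pseudocounts, filters, voom weights, a replicate block and left-out samples were tried as alternatives. The tests were checked on simulated data. The members were taken by gene name, and the other lists were written with earlier results of these data known. All 9 members were named, and from other lists at most the 4 called genes with the largest estimates per comparison. The labels do not say that mice came from separate cages, so p-values cover the spread between these mice.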

Additional observations from a re-analysis of the deposited data

Results flagged for a closer look

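In 6 of the 126 groups of 4 mice, the highest or lowest mouse stood apart from the other 3 by Dixon's criterion, and chance gives about 5% of groups. DRF ZT4 mouse 4 had 58.1 TPM of Psat1 where the others had 20.3 to 21.3 TPM, and its medullary marker sum was 2183 TPM. Phgdh stood apart in DRF ZT16 mouse 1 (40.2 TPM, others 22.1 to 22.6 TPM) and in NRF ZT8 mouse 1 (46.1 TPM, others 20.3 to 21.7 TPM), and the medullary marker sums of these mice, 1388 and 1604 TPM, were the highest of their groups. Sesn2 was 44.0 TPM in NRF ZT8 mouse 2 (others 32.0 to 33.3 TPM). The lowest mice that stood apart were DRF ZT12 mouse 3 for Atf4 (161 TPM, others 179 to 180 TPM) and DRF ZT24 mouse 2 for Chac1 (1.29 TPM, others 1.82 to 1.91 TPM). The part of the collecting duct and inner medulla in these single values was not tested. Over all 56 mice, Phgdh had r = 0.79 with the medullary sum within groups (permutation test, adjusted p = 9.00e-05). Psat1 had r = 0.41 (adjusted p = 0.0255), and r = 0.30 with median-of-ratios scaling (adjusted p = 0.160).

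The 24-h rhythm differed between DRF and NRF by the interaction test in limma, with adjusted p values of 0.00103 for Atf4, 2.99e-05 for Chac1, 0.0268 for Asns, 0.00321 for Sesn2 and 0.0261 for Psat1. For Asns and Psat1 the interaction of regimen and time, without a cosine, was not called (adjusted p = 0.260 and 0.172).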

How the results depend on the processing

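No call of a member changed direction under any setting. With the medullary covariate, members rhythmic under NRF were 7 (4 otherwise) and those with a 12-h component under DRF 1 (2 otherwise). Those with a different mesor were 4 (0 otherwise) and feeding-matched differences 11 (3 otherwise). The shares of all genes there were 58.9%, 30.2%, 27.5% and 25.4%, in the same order (54.6%, 24.5%, 9.07% and 17.6% otherwise). Without the 7 libraries with high adipose markers, members with a 12-h component under DRF were 1, those with a different mesor 1 and feeding-matched differences 6. The shares of all genes were then 24.9%, 6.71% and 16.1%. Without the ZT24 samples, 3 members differed in rhythm (5 otherwise), beside 38.0% of all genes, and contrasts with ZT24 were not run. A minimum mean of 5 TPM left out Chac1 and Trib3, hence 1 member with a 12-h component under DRF, beside 25.8% of all genes. The mesor count was 1 (Atf4) with median-of-ratios scaling, on the authors' log scale and with voom weights. The shares of all genes were 9.54%, 8.02% and 9.99%, in the same order. Feeding-matched differences were 8 with median-of-ratios scaling and 7 on the authors' log scale, beside 18.6% and 16.1% of the tests of all genes. Correlated pairs were 11 and 10 (20 otherwise). Where no value shows a cause, the cause was not tested.

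Leaving out 1 library at a time (56 fits) gave 3 to 7 members rhythmic under NRF (7 without NRF ZT16 mouse 2), 2 to 4 under DRF, 4 to 6 with a different rhythm, 0 to 1 with a 12-h component under NRF (1 without NRF ZT4 mouse 1), 1 to 2 under DRF (1 without any of 15 libraries), 0 to 1 with a different mesor (Atf4, without DRF ZT20 mouse 2, DRF ZT24 mouse 1, NRF ZT4 mouse 4 or NRF ZT16 mouse 2), 12 to 15 clock-matched differences, 3 to 6 feeding-matched ones (6 without DRF ZT12 mouse 3 or NRF ZT20 mouse 2), 0 between ZT24 and ZT0, and 16 to 21 pairs. The replicate block gave 3 members rhythmic under NRF, 3 under DRF, 5 interactions, 0 and 2 with a 12-h component, 0 mesors, 12 clock-matched and 3 feeding-matched differences. With that block the shares of all genes were 50.7%, 34.4%, 44.3%, 0.205%, 23.4%, 8.35%, 15.4% and 16.9%, in the same order. The numbers did not pair the mice: deviations of mice with the same number had a mean r of 0.0107 (other numbers −0.0009), and in 4 of 91 pairs of groups every r was over 0.1. Low reads limit Chac1 and Trib3.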
